A study of Mus musculus with 9 samples.

Results

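Cd14, Csf2, Cxcl5 and Rsad2 are 4 innate immune genes that were listed as higher in at least 1 comparison of Hepa1-6 cells, a mouse hepatocarcinoma line, after exposure to the material named P-Por-Os. They were chosen from the 217 distinct genes in 3 deposited tables by symbol, and each table holds only genes that the study listed as higher in its first group, so the listing itself is a description here and carries no test. The groups were P-Por-Os at 25.57 µg/mL combined with ultrasound (P-Por-Os+US, the combined treatment), the same concentration of the material without ultrasound (P-Por-Os alone), and control cells, which were untreated per the labels and received PBS per the series description. All cells carried the genotype given as WT and grew in the same serum-containing medium, and each group had 3 libraries, of 34744000 to 37664000 reads by the steps in low values. The labels give no exposure time, no ultrasound setting and do not say whether separate cultures were used, so the spreads below lie between libraries and may be technical.

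Innate immune genes let a cell report microbes or damage. CD14 is a surface and secreted protein that hands bacterial lipopolysaccharide to the receptor TLR4, whose signal runs through the adaptor MyD88 to the transcription factor NF-kB. NF-kB drives secreted proteins such as GM-CSF, the growth factor encoded by Csf2 that acts on granulocytes and macrophages, and chemokines such as CXCL5, which attracts neutrophils. Rsad2 encodes viperin, an antiviral enzyme of the interferon response.

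The combined treatment against control listed Cd14, Cxcl5 and Rsad2, that is 3 of the 4 genes, where 0.403 percent of the 15142 genes tested were listed. P-Por-Os alone against control listed Cd14 and Csf2, 2 of the 4, where 1.05 percent of 15270 were listed. The combined treatment against the material alone listed only Rsad2 of the 4, where 0.179 percent of 15074 were listed. The genes were picked from these lists, so nothing is read from the excess over those shares. The level of Csf2 after the combined treatment and the level of Cxcl5 after P-Por-Os alone were not analysed here, because each gene occurs in a single table. The libraries of the groups compared did not overlap for 59 of the 61, 159 of the 160 and 27 of the 27 listed genes, so a lack of overlap comes with being listed and is no trait of the 4 genes. The first 2 comparisons share their control libraries, and each is given with its own values below. No marker of hepatocytes among the 6 examined was a listed gene, so the identity of the cells was not checked.

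**Figure D1:**
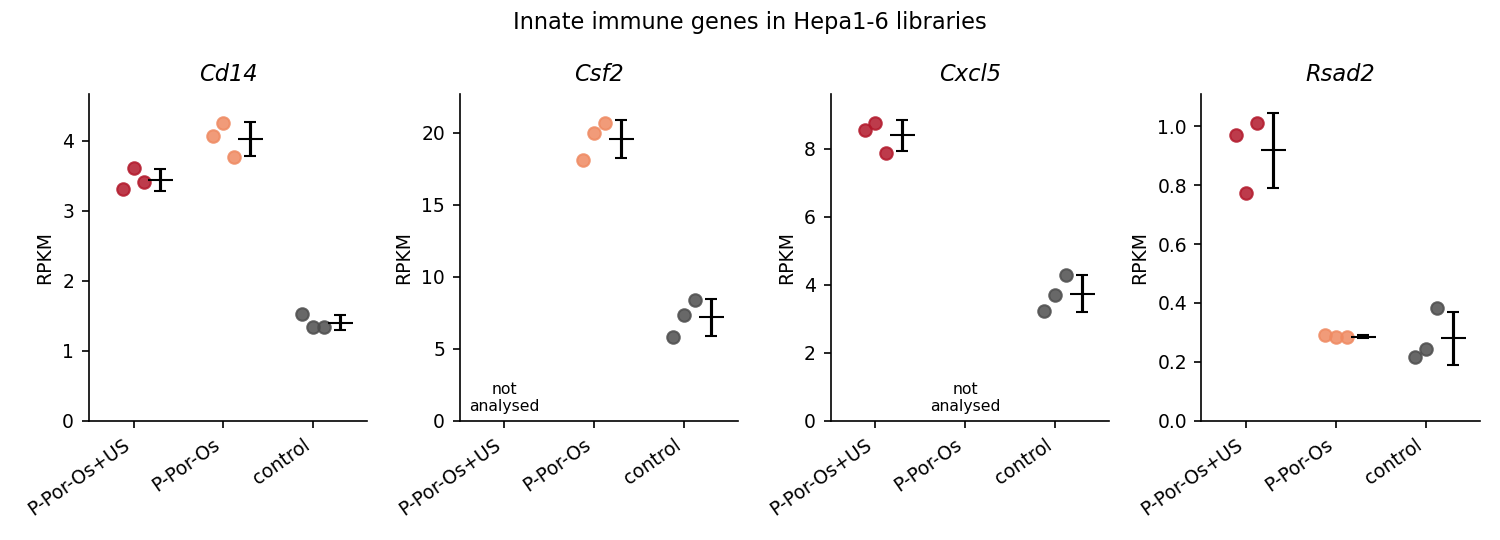
RPKM (reads relative to gene length and sequencing depth) of the 4 genes in every library that gave a value, with one point per library and the mean ± SD beside the points (n = 3). The P-Por-Os+US points of Rsad2 all lie above the other 6 libraries, whereas for Cd14 both P-Por-Os groups lie above control.

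Cd14 lies on chromosome 18 from 36725067 to 36726798 on the minus strand (GRCm38), a protein-coding gene that overlaps no other GENCODE M21 gene. It stood at 3.31, 3.62 and 3.41 RPKM in the P-Por-Os+US libraries, at 4.07, 4.25 and 3.76 RPKM in the P-Por-Os libraries, and at 1.52, 1.34 and 1.34 RPKM in the control libraries. The highest levels were in the P-Por-Os libraries and the lowest in control, and both treated groups lay above control, as for 59 of 61 and 159 of 160 listed genes. The treated groups did not overlap each other either, which is not read as a trait of Cd14. Of the 28 genes with values in all 9 libraries, only 9830144P21Rik, Gm10282, Gm14317, Gm23187, Jph3, Kif5a, Mir150 and Slc20a1 overlapped between the treated groups. A lack of overlap was therefore the more common case among these genes. These values correspond to about 200 to 223, 235 to 264 and 82 to 99 reads. The authors' deposited table gives a log2 fold of 1.23 for the combined treatment against control, with an adjusted p of 7.18e-05. For P-Por-Os alone against control the authors' deposited table gives 1.39, with an adjusted p of 1.60e-06. RNA from the whole culture was sequenced, so more cells with Cd14 RNA and more Cd14 RNA per cell cannot be told apart.

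The contrast between the treated groups did not list Cd14, and it was tested. Both treated groups had entered the listings of Cd14 against control, so the test is not independent of the listing. Not being listed already meant that Cd14 was not called higher with ultrasound at the listing minimum. Cd14 averaged 3.44 ± 0.156 RPKM with ultrasound and 4.03 ± 0.246 RPKM without it (SD, n = 3 each). The difference was -0.22 ± 0.13 (SE) on the log2(RPKM + 0.1) scale, with a 95 percent interval from -0.48 to 0.04. It did not pass limma, with an adjusted p of 0.153 over the 28 genes that have values in all 9 libraries, of which 46.4 percent had an adjusted p under 0.05 in this contrast. Those 28 genes had all been listed as higher in more than 1 comparison, and some, such as Rsad2, in this one. They are therefore no sample of all genes. The exact two-sided permutation test gave p = 0.1, the smallest that 3 libraries against 3 allow, since every library with ultrasound lay below every library without it. The interval holds ratios of RPKM + 0.1 from 0.716 to 1.03, which include no difference. Scaling each library by its median over the 28 selected genes, of which 16 were higher with ultrasound, made the difference -0.44, with a limma adjusted p of 0.0112. The median difference of the 28 genes was 0.21, which this scaling removes by construction. A scaling estimated from the authors' folds of the listed genes made the difference -0.15, with a limma adjusted p of 0.378.

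Csf2 was the most abundant of the 4 genes per length in the libraries that gave a value. It stood at 18.1, 20.0 and 20.7 RPKM in the P-Por-Os libraries, against 5.77, 7.36 and 8.36 RPKM in the control libraries. The lowest treated library was 2.17 times as high as the highest control library, and 159 of the 160 genes listed there showed no overlap. The authors' deposited table gives a log2 fold of 1.34 and an adjusted p of 2.55e-08, which places Csf2 at rank 175 by p among the 15270 genes tested. The control libraries spread with a coefficient of variation (SD over mean) of 18.2 percent, where counting 174 to 235 reads would give 6.98 percent on its own. Leaving out each library in turn moved the log2 ratio of mean RPKM between 1.32 and 1.58, around 1.45.

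Csf2 lies on chromosome 11 from 54247271 to 54249667 on the minus strand, and the antisense model Gm12223 runs over it on the plus strand from 54247600 to 54254495. The models share 96 exonic bases, 12 percent of the exonic length of Csf2 and 18.2 percent of that of Gm12223. Gm12223 was listed beside Csf2, at 11.4, 13.2 and 13.8 RPKM in the P-Por-Os libraries, against 3.42, 4.50 and 5.50 RPKM in the control libraries. The authors' deposited table gives Gm12223 a log2 fold of 1.40, with an adjusted p of 1.16e-06. Its RPKM was between 0.592 and 0.667 of that of Csf2 in all 6 libraries. The libraries are described as stranded, but the strand setting of the counting is not given in the sources used here, so reads of the shared bases cannot be assigned to one model. Il3, the cytokine gene 15635 bases from Csf2 on the same strand, was not among the listed genes.

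**Figure D2:**
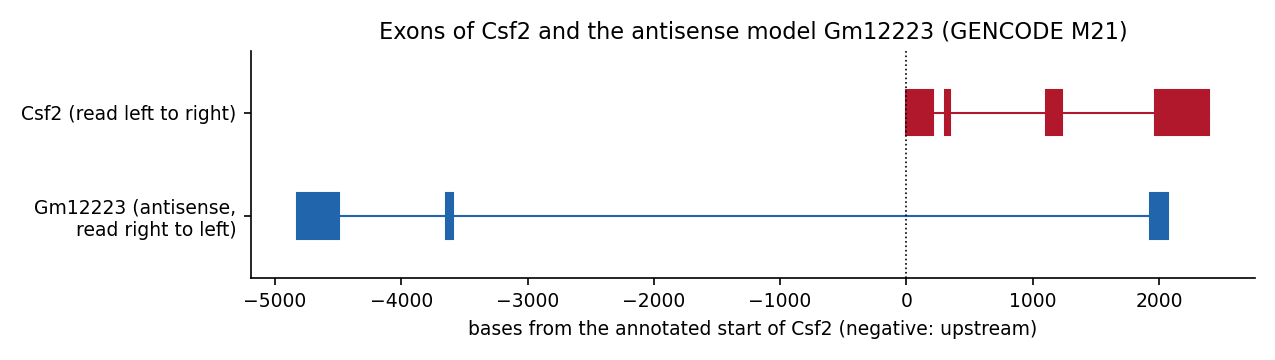
Exons (boxes) of Csf2 and of the antisense model Gm12223 on an axis of bases from the annotated start of Csf2. The last exon of Csf2 and the first exon of Gm12223 share 96 bases, and the other exons of Gm12223 lie upstream of Csf2.

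Cxcl5 lies on chromosome 5 from 90759360 to 90761624 on the plus strand, in a cluster of neutrophil and platelet chemokines. It stood at 8.55, 8.75 and 7.88 RPKM in the P-Por-Os+US libraries, against 3.22, 3.70 and 4.29 RPKM in the control libraries. The groups did not overlap, as for 59 of the 61 genes listed there, and the lowest treated library was 1.84 times as high as the highest control library. The authors' deposited table gives a log2 fold of 1.12, the nearest of the 4 genes to the listing minimum of 1, with an adjusted p of 7.02e-06 and rank 211 by p among the 15142 genes tested. The P-Por-Os+US libraries spread by 5.42 percent around their mean and the control libraries by 14.4 percent, where counting gives 4.27 and 6.32 percent. Without 1 library the log2 ratio of mean RPKM ran from 1.07 to 1.28.

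The nearest neighbour of Cxcl5 on the annotation is Ppbp, 6893 bases away on the same strand, which encodes another chemokine that attracts neutrophils. Ppbp was listed in P-Por-Os alone against control, at 2.82, 3.16 and 2.98 RPKM in the P-Por-Os libraries, against 1.25, 1.02 and 1.47 RPKM in the control libraries. The authors' deposited table gives Ppbp a log2 fold of 1.14 and an adjusted p of 1.43e-04. The tables therefore list these neighbours in different comparisons, and whether their responses differ was not tested, since no library with ultrasound gave a value for Ppbp here and none without ultrasound but with P-Por-Os gave one for Cxcl5.

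Rsad2 lies on chromosome 12 from 26442746 to 26456452 on the minus strand. Its RefSeq promoter window, from 250 bases before to 50 after the start (GRCm38.p6, chr12:26456403-26456702, minus strand), is printed 5′ to 3′ because it holds the element by which interferon-induced genes are known. Capitals mark matches on either strand to that element, the interferon-stimulated response element searched as TTTCNNTTTC, and to the AP-1 site searched as TGANTCA.
Rsad2: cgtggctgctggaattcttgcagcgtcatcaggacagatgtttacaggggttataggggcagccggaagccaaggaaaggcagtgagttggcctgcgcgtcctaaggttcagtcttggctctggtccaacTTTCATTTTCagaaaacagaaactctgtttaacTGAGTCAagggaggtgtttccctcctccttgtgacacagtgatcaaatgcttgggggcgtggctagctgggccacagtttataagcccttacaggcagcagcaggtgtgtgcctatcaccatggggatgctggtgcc
The response element match ends 110 bases before the start and the AP-1 match 80 bases before it, and they do not overlap. Of 32851 RefSeq promoter windows of this length, 3.44 percent hold a response element match and 7.81 percent an AP-1 match. The GAS element of STAT factors, searched as TTCNNNGAA, and the NF-kB site had no match in this window, and 8.30 and 8.46 percent of windows hold one. Promoter windows were examined for only 2 of the 4 genes, Rsad2 and Csf2. The Csf2 window had no match to these 4 motifs, with a RefSeq start that lies 232 bases from the GENCODE start. That window, from 54249850 to 54250149, lies wholly upstream of the GENCODE start at 54249667. The bases next to the GENCODE start were therefore not searched, and whether they hold these motifs was not tested. A match describes letters and shows no binding.

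Rsad2 was the lowest of the 4 genes per length. It stood at 0.971, 0.774 and 1.01 RPKM in the P-Por-Os+US libraries, at 0.290, 0.283 and 0.282 RPKM in the P-Por-Os libraries, and at 0.215, 0.243 and 0.381 RPKM in the control libraries. The libraries with ultrasound were higher than the 6 others, where 59 of 61 genes listed against control and 27 of 27 listed against P-Por-Os alone had no overlap, and the P-Por-Os values lay inside the range of the control values. These values rest on 119 to 152, 44 to 46 and 35 to 58 reads. The authors' deposited table gives a log2 fold of 1.67 for the combined treatment against control, with an adjusted p of 4.90e-05. For the combined treatment against the material alone the authors' deposited table gives 1.76, with an adjusted p of 2.17e-06, the fourth largest fold of the 27 genes listed there. The ratio of mean RPKM was 3.29 against control and 3.22 against P-Por-Os alone.

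P-Por-Os alone against control did not list Rsad2, and that contrast was tested for it. Both groups had entered listings of Rsad2 as the lower group, so the test is not independent of the listing. Not being listed already meant that Rsad2 was not called higher after P-Por-Os at the listing minimum. Rsad2 averaged 0.285 ± 0.00432 RPKM after P-Por-Os without ultrasound and 0.280 ± 0.0892 RPKM in control (SD, n = 3 each). The difference was 0.05 ± 0.19 (SE) on the log2(RPKM + 0.1) scale, with a 95 percent interval from -0.36 to 0.45 and a limma adjusted p of 0.811 over the 28 genes. In this contrast 78.6 percent of the 28 had an adjusted p under 0.05, all of them higher. The 28 include genes that this same contrast listed as higher, such as Cd14. That share therefore follows in part from the listing and is no background for Rsad2. The exact two-sided permutation test gave p = 1. The interval holds ratios of RPKM + 0.1 from 0.782 to 1.36, and a change within those bounds is not excluded. At 0.28 RPKM the added 0.1 draws such ratios toward no difference, so ratios of RPKM itself would lie in wider bounds. The direction is not fixed either: the difference was -0.076 without control replicate 1, -0.014 without control replicate 2 and 0.23 without control replicate 3, the highest control library. Scaling each library by its median over the 28 selected genes, of which 26 were higher after P-Por-Os, made the difference -0.77, outside that interval, with a limma adjusted p of 0.000552. A scaling estimated from the authors' folds of the listed genes made it -0.044, with a limma adjusted p of 0.852.

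The P-Por-Os libraries agreed on Rsad2 more closely than counting error allows on average. Their coefficient of variation was 1.51 percent, whereas counting 44 to 46 reads gives 15.0 percent, so their SD is no measure of the error of that mean. In control it was 31.9 percent, against 15.4 percent from counting. Control replicate 1 was the lowest and control replicate 3 the highest control library for Csf2, Cxcl5 and Rsad2, whereas for Cd14 control replicate 1 was the highest.

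**Figure D3:**
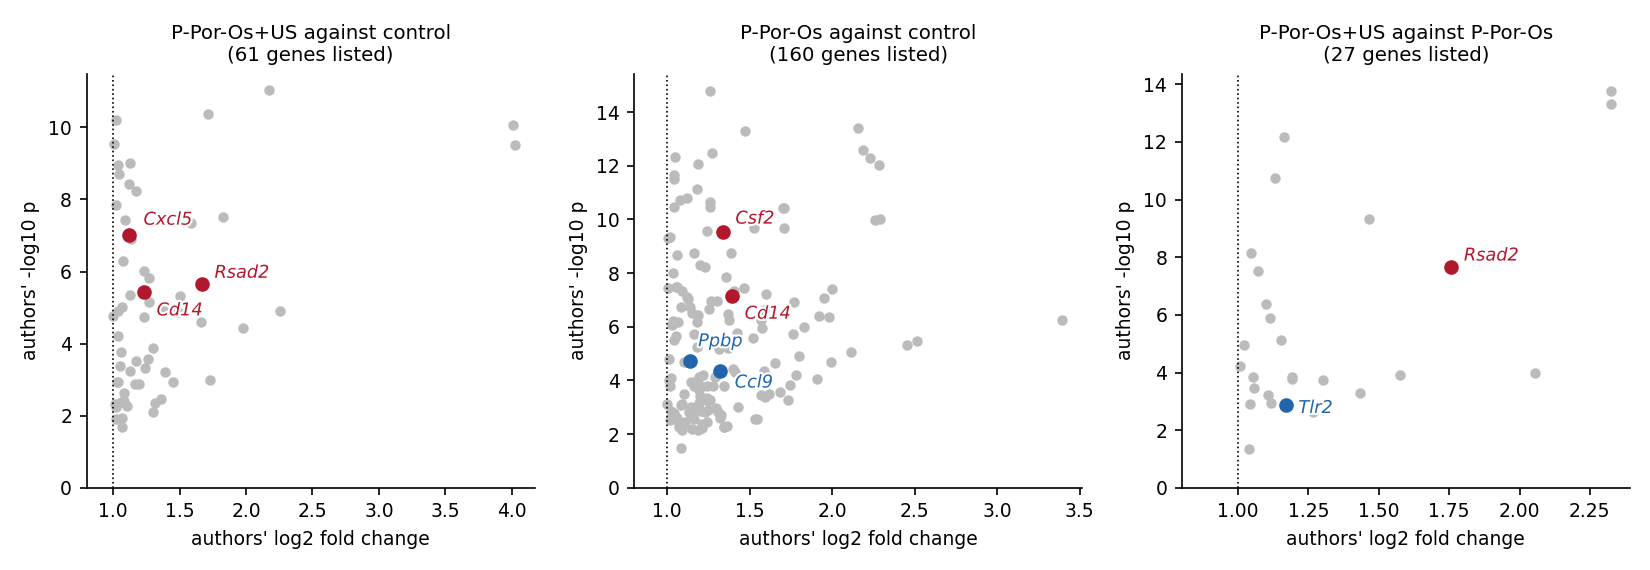
Authors' log2 fold change (x axis) against -log10 of the authors' unadjusted p (y axis) for every listed gene of each comparison, with the 4 genes in red and other listed innate immune genes in blue. The dotted line marks the listing minimum of 1. Rsad2 stands at 1.67 and 1.76, to the right of most listed genes, and Cxcl5 at 1.12, near the minimum.

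By log2 fold in the authors' deposited table, Cd14 ranked 25th, Cxcl5 36th and Rsad2 9th of the 61 genes higher after P-Por-Os+US than in control, where the median log2 fold was 1.16. Cd14 ranked 48th and Csf2 58th of the 160 genes higher after P-Por-Os than in control, where the median was 1.24. Among the 27 genes higher with ultrasound than without it, the median was 1.15.

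Beside the 4 genes, 3 other genes of the innate immune lists were listed in any comparison. Of 162 other genes in 5 lists, 0 were listed for the combined treatment against control, 2 for P-Por-Os alone against control (Ccl9 and Ppbp, 1.23 percent) and 1 for the combined treatment against the material alone (Tlr2, 0.617 percent). The shares of all tested genes were the 0.403, 1.05 and 0.179 percent given above, and how many of the 162 were tested is not known here. Neither a lack nor an excess of innate immune genes is read from these counts, or from those of the single lists below. Genes that fell, or rose by less than the minimum, are not described in these tables. A gene named below as not listed may therefore still have changed.

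Of 26 genes of the TLR4 and CD14 pathway, Cd14 was listed in both comparisons with control and Tlr2, the receptor for bacterial lipoproteins, in the comparison of the combined treatment with the material alone. Tlr2 stood at 0.389, 0.327 and 0.468 RPKM in the P-Por-Os+US libraries, against 0.145, 0.157 and 0.249 RPKM in the P-Por-Os libraries. The groups did not overlap, as for all 27 genes listed there, and these values rest on 35 to 49 and 16 to 27 reads. The authors' deposited table gives Tlr2 a log2 fold of 1.17 and an adjusted p of 7.92e-03. Tlr4, its partner Ly96 and Myd88 were not listed in any comparison.

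Of 37 NF-kB targets, Cd14 and Cxcl5 were listed for the combined treatment against control, Cd14 and Csf2 for P-Por-Os alone against control, and 0 for the combined treatment against the material alone. The feedback inhibitors Nfkbia and Tnfaip3, which NF-kB induces, were not listed. Of 35 chemokines, Cxcl5 was listed for the combined treatment against control, and Ccl9 and Ppbp for P-Por-Os alone against control. Ccl9, which encodes a chemokine for myeloid cells, stood at 0.834, 0.613 and 0.876 RPKM in the P-Por-Os libraries, against 0.296, 0.272 and 0.280 RPKM in the control libraries. The authors' deposited table gives Ccl9 a log2 fold of 1.32 and an adjusted p of 2.91e-04.

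Of 33 cytokines and colony stimulating factors, only Csf2 was listed, for P-Por-Os alone against control. Of 49 interferon-stimulated genes, only Rsad2 was listed, for the combined treatment against control and for the combined treatment against the material alone. That is 2.04 percent in each, against 0.403 and 0.179 percent of all tested genes. Rsad2 was picked from these lists, so nothing is read from that count. Cmpk2, a gene induced with Rsad2 by interferon that lies 12751 bases from it on the opposite strand, was not listed, nor were Ifit1, Isg15 or Mx1. Cd14 is itself 1 of 7 macrophage and monocyte markers examined, and the other markers of that list, such as Ptprc, Adgre1 and Lyz2, were not listed. No marker of neutrophils, T cells, B cells, endothelial cells or fibroblasts was listed. The levels of unlisted markers were not analysed here, so the part of other cells in the Cd14 values was not tested.

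The listed genes with the pattern most like each of the 4 were found by the root mean square difference of log2(RPKM + 0.1), centred on the control mean, over the libraries that both genes have. For Cd14, over 9 libraries, these were Gm14317, a long non-coding RNA model, at 0.14, Hmgn2, which encodes a nucleosome-binding protein, at 0.19, and Clca3b, a chloride channel accessory gene, at 0.21, where the median of 27 genes was 0.36. All 3 had, like Cd14, a higher mean without ultrasound than with it, which follows in large part from choosing them for likeness. Of the 28 genes, 16 were higher with ultrasound. Clca3b averaged 29.6 RPKM in P-Por-Os+US libraries, 39.5 RPKM in P-Por-Os libraries and 13.1 RPKM in control libraries. For Rsad2, over 9 libraries, they were Gm34176, a processed pseudogene, at 0.19, Insig1, which restrains sterol synthesis, at 0.25, and Gm12609 at 0.27, where the median was 0.78. Insig1 averaged 1.71 RPKM in P-Por-Os+US libraries, 0.828 RPKM in P-Por-Os libraries and 0.750 RPKM in control libraries.

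For Csf2, over 6 libraries, the nearest of 159 genes was Gm12223, the antisense model that overlaps it, at 0.07, followed by Tff3, which encodes a secreted trefoil peptide of mucous surfaces, at 0.07 and Gm44492 at 0.08. The median was 0.27. For Cxcl5, over 6 libraries, the nearest of 60 were Gm28039 at 0.07, Gimd1 at 0.09 and Nol10, a nucleolar protein gene, at 0.10, where the median was 0.24. These genes share the libraries, and the low value of control replicate 1 among the control libraries is common to Csf2, Cxcl5 and their nearest genes.

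**Figure D4:**
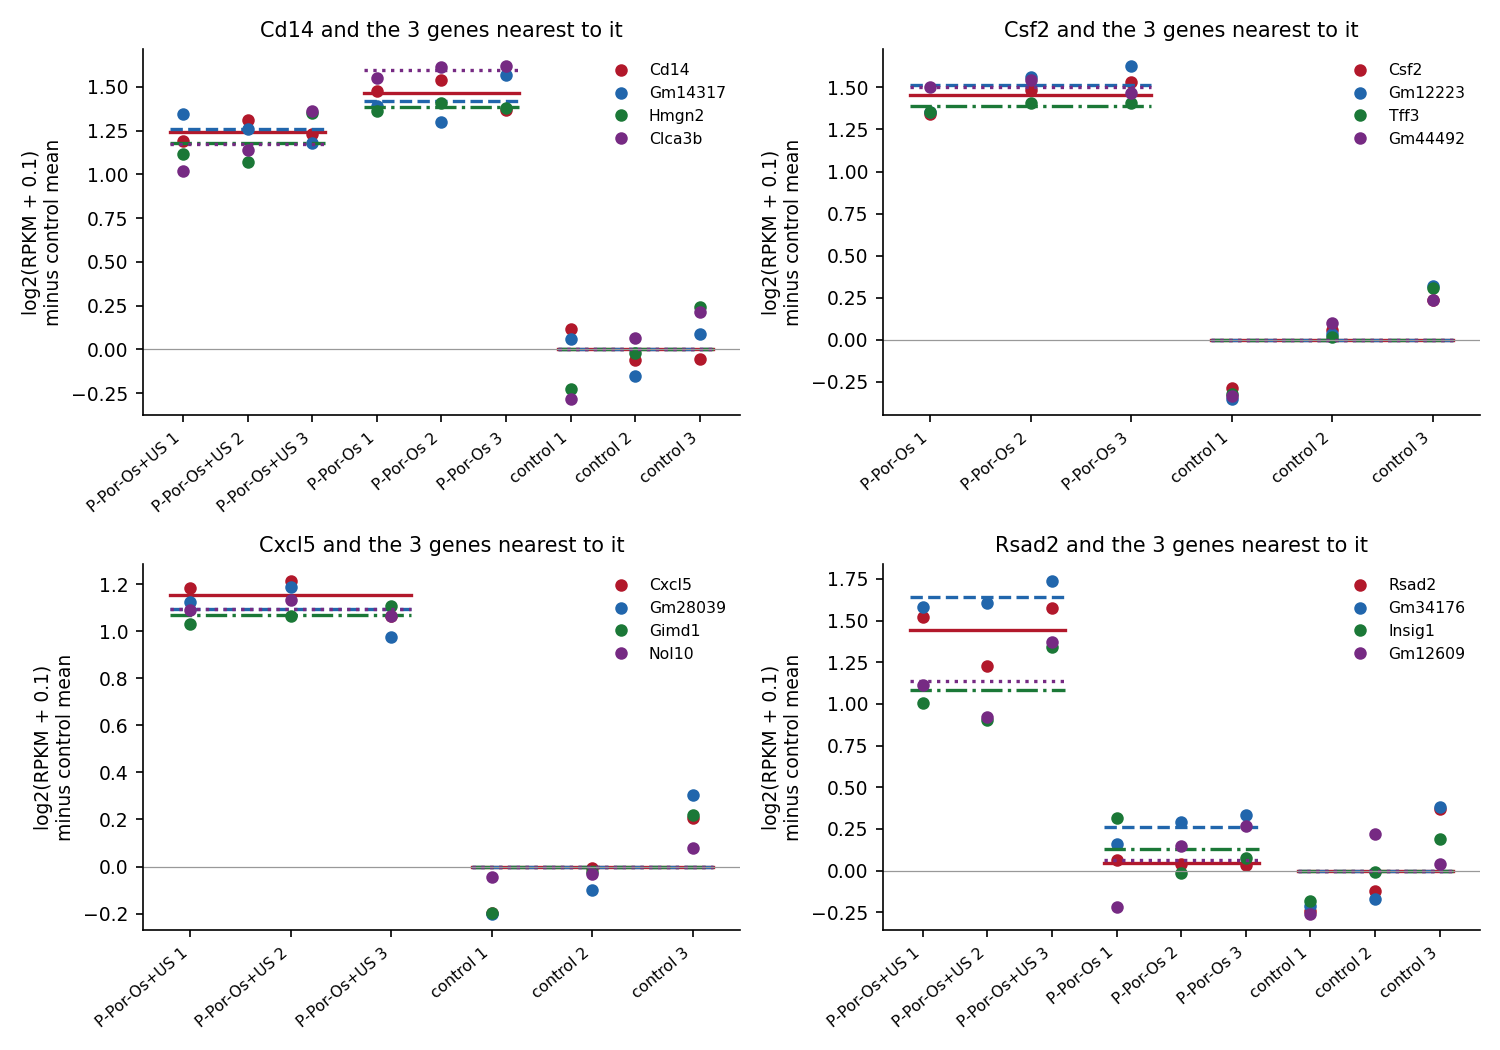
log2(RPKM + 0.1) minus the control mean (y axis) in each library (x axis, numbered within groups) for each of the 4 genes and the 3 listed genes nearest to it, with points for libraries and lines for group means. Cd14 and its nearest genes are higher in both P-Por-Os groups than in control, and Rsad2 and its nearest genes are higher in P-Por-Os+US libraries than in the other groups.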

How the data were processed

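RNA of Hepa1-6 cells was sequenced from stranded libraries as paired ends of 150 bases, per the labels' protocols, which name an mRNA kit and an rRNA depletion kit without saying which library had which. The submitters' processing notes name the build GRCm38 and the tools fastp 0.23.4, Subread 1.5.1 with featureCounts, and edgeR 3.12.1. Aligner, annotation and strand setting were not given in the sources used here. The authors deposited, per the file headers, 3 tables with log2 fold changes, log2 CPM, an F score, p-values and adjusted p-values. The RPKM values of the 6 libraries of each table were also deposited by the authors; 2 to the power of log2 CPM over RPKM times exonic length had a median of 1.008. The tables' folds were all at least 1 on the log2 scale and their p-values under 0.05.

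The tables were joined by symbol. The numbers of genes tested came from ratios of p to adjusted p. Library totals, 34744000 to 37664000 reads, came from the whole-read steps of low RPKM values (within 0.05 of a whole number) with GENCODE M21 exonic lengths, and give the reads quoted, which are rounded and approximate for all 4 genes. Of the 31-base words of their transcripts, 9.22 percent of Csf2, 0.871 percent of Cxcl5, 0.739 percent of Rsad2 and 0 of Cd14 recur in other genes. Errors from counting cover counting error only. The contrast that did not list Cd14 and the one that did not list Rsad2 were tested, on libraries that had entered their other listings. The test was limma 3.58.1 (R 4.3.3) on log2(RPKM + 0.1) with a variance trend, over the 28 genes with values in all 9 libraries. Benjamini-Hochberg adjustment was used, with an exact permutation test beside it. The limma step was also run on simulated data in which most genes did not change. That setting differs from the 28 selected genes, so it is no check of the fit on them. No count test was run on RPKM.

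The genes, gene lists and tests were chosen with earlier results of these data known. The genes named are the 4, every gene of the 5 lists that a table lists, and the 3 nearest genes to each. Unlisted genes, neighbours and the genes whose treated groups overlapped are named as background, after the tables were seen. Alternatives changed the pseudocount, the filter, the scaling, the trend, a replicate block and the libraries used.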

Additional observations from a re-analysis of the deposited data

How the results depend on the processing

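Of 85 alternative values, 72 kept their direction and their side of the threshold or moved by less than the spread between libraries. The 85 include ratios of means and listing counts of genes that the listing chose. Their direction was fixed in advance, so the total is no measure of robustness. The 4 reversed values were all of Rsad2 between P-Por-Os and control. Scaling each library by its median over the 28 fitted genes gave -0.44 for Cd14 between the treatments with and without ultrasound and -0.77 for Rsad2 between P-Por-Os and control (limma adjusted p 0.0112 and 0.000552); of the 28 genes 26 were higher after P-Por-Os than in control, with a median of 1.21, which this scaling removes by construction. A further scaling, added after the data were seen, was estimated and is not the authors' own. It came from the median gap between the authors' log2 folds and the log2 ratios of mean RPKM over the listed genes. It shifts the P-Por-Os libraries by -0.12 against control. With it the difference was -0.044 for Rsad2 (limma adjusted p 0.852) and -0.15 for Cd14 (limma adjusted p 0.378). Leaving out each library gave -0.27 to -0.18 for Cd14 and -0.076 to 0.23 for Rsad2, whose values were -0.076 and -0.014 without control replicates 1 and 2. Limma adjusted p-values over all alternatives ran from 0.0112 to 0.385 for Cd14 and from 0.000552 to 0.946 for Rsad2; Rsad2 has no value with a minimum mean of 1 RPKM.

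When the minimum log2 fold was 1.5 in the authors' deposited tables, 1 of the genes stayed listed for the combined treatment against control (Rsad2) and 0 for P-Por-Os alone against control. A pseudocount of 1 lowered the log2 ratios of low genes by construction. For the combined treatment against control it gave 0.89 for Cd14, 0.99 for Cxcl5 and 0.58 for Rsad2, for P-Por-Os alone against control 1.07 for Cd14, and for the combined treatment against the material alone 0.58 for Rsad2, which became 1.39 with a mean of log2(RPKM + 0.1).

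Replicate numbers are shared between groups, but deviations of same-numbered libraries correlated from -0.27 to 0.32 and 3 of 9 libraries correlated best with their own number, so the numbers were not taken as pairs. With a replicate block the differences were -0.22 for Cd14 (limma adjusted p 0.075) and 0.05 for Rsad2 (0.785), and of the 28 genes 14 in place of 13 had an adjusted p under 0.05 in the contrast of the treated groups and 22 under both fits in the other. Low read numbers, 35 to 58 for Rsad2 in the P-Por-Os and control libraries and 16 to 49 for Tlr2, limit what these libraries can show.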
